A study of Homo sapiens with 21 samples.

Results

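The regions described here are 304 of the 19279 H3K4me3 regions of RS4;11 cells, chosen by where peaks were called. A member has a called peak in all 3 libraries of asparagine-free medium with iron, in none of the 3 libraries of complete medium, and in 0, 1 or 2 of the 3 libraries of asparagine-free medium without iron. RS4;11 is a cell line established from acute lymphoblastic leukaemia of B-cell precursors, with a fusion of KMT2A to AFF1. Its cells were kept for 24 h in complete medium (+Asn), in asparagine-free medium (-Asn), or in the latter with ferric nitrate at 10 µM and hinokitiol at 0.75 µM (-Asn+Fe). Hinokitiol is a plant-derived compound that can move iron through lipid membranes. The labels do not say that the other media held it, so an effect of iron and one of hinokitiol cannot be told apart. Each medium had 3 libraries of H3K4me3 ChIP-seq, which maps the genome fragments that carry the mark, and 3 libraries of RNA-seq. The peak columns named untreated were read as +Asn. Calls chose the members, so H3K4me3 calls and called lengths are given as a description with no test, and only RNA, which the choice did not use, was tested.

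H3K4me3, trimethylation of lysine 4 of histone H3, is laid down by the KMT2 and SET1 methyltransferase complexes and is known as a mark of the start sites of active genes. The KDM5 demethylases that remove it are dioxygenases that need ferrous iron, oxoglutarate and oxygen. Cells short of an amino acid activate the kinase GCN2, which raises the transcription factor ATF4 and its target genes.

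The promoters of 6 genes that have a member at or next to their 5′ end are shown first, because the RNA results below turn on these genes. They are the 250 bases before the gene's start in the RefSeq annotation of GRCh38.p14, written 5′ to 3′ on the gene's strand, with matches to the searched motifs in capitals. The genes are ADM2 (chr22:50481293-50481542 on the plus strand), CTSG (chr14:24576251-24576500 on the minus strand), NHS (chrX:17374950-17375199 on the plus strand), CYTL1 (chr4:5019459-5019708 on the minus strand), UCN2 (chr3:48563782-48564031 on the minus strand) and PCDHB13 (chr5:141213669-141213918 on the plus strand).
ADM2: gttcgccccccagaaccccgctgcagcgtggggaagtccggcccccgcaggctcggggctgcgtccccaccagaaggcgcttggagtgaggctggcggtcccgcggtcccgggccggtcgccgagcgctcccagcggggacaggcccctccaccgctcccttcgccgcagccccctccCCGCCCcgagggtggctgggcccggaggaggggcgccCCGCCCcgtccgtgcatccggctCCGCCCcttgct
CTSG: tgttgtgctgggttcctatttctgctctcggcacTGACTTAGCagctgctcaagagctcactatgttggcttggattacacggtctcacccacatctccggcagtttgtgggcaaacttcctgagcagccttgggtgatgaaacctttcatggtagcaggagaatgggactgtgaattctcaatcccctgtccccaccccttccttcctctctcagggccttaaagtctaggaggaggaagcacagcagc
NHS: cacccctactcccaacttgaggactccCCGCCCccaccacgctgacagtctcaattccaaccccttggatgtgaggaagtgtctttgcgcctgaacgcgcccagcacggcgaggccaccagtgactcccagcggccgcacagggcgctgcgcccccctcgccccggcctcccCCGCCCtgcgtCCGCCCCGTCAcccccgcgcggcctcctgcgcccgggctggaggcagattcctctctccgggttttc
CYTL1: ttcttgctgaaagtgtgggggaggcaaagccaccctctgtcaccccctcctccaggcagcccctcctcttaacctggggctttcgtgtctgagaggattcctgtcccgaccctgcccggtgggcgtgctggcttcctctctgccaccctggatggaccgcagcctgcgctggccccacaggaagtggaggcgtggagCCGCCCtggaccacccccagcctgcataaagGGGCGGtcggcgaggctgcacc
UCN2: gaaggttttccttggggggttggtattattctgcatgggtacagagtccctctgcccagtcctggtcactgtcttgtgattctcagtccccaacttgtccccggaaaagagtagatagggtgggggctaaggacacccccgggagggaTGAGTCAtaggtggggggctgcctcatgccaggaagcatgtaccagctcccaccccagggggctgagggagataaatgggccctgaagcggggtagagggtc
PCDHB13: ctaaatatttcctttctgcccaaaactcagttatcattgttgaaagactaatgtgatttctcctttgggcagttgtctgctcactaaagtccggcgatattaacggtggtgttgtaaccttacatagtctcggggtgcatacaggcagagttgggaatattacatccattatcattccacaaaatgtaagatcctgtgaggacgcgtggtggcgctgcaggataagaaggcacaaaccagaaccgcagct
The member region covered all 250 bases of the UCN2 window, 218 of the CYTL1 window, 105 of the ADM2 window and 55 of the CTSG window. A merged region joins the peaks of several libraries, and the 3 -Asn+Fe libraries themselves called 250 bases each of the UCN2 window, 137, 64 and 218 of the CYTL1 window, 45, 0 and 29 of the ADM2 window, and 55, 15 and 45 of the CTSG window. The NHS and PCDHB13 windows end just before their regions begin, at chrX:17375203-17375675 and chr5:141213928-141214175. The capitals in ADM2 and CYTL1 are GC boxes (GGGCGG or its reverse complement), those in CTSG are the core of an antioxidant response element (TGACNNNGC), and those in UCN2 are an AP-1 element (TGANTCA). NHS held GC boxes and an antioxidant response element core, 1 of the boxes overlapping that core, and PCDHB13 held none of the motifs.

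Motifs were searched on both strands. Of the 54 genes with a member at the 5′ end, 19 matched the RefSeq promoter table, and 14 of these had the 250-base window in the member or within 1000 bp of it. The count table's annotation and RefSeq place the start differently in the other 5 (CHRNA1, FABP6, ITGB1, IFITM3 and APC2), whose windows lay 4569 to 46902 bp from the member, and these were left out of the motif counts after the data were seen. The antioxidant response element core was in 2 of the 14 (14.3%: CTSG and NHS) and in 10.9% of all 35116 windows of that table. GC boxes were in 8 of 14 (57.1%) against 42.6%, the CCAAT box (CCAAT) in 3 (21.4%) against 32.0%, and the AP-1 element in 1 (7.14%) against 6.57%. No window among the 14 held the letters searched for a TATA box (TATAAA, in 10.7% of all windows), a cyclic AMP response element (TGACGTCA, 1.65%), a C/EBP-ATF composite element (TGATGCAA, 0.772%), an E-box (CACGTG, 6.34%) or an ETS site (CCGGAAG, 8.52%). The 14 windows had a median GC content of 64.8% and a median CpG observed over expected ratio of 0.698, beside 58% and 0.558 over all windows. With 14 windows these shares are a description, and a match is not a site in use.

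The name of the set, regions gained fully only with iron, held for the calls in a narrow sense. Of the 304 members, 39 had no call in any -Asn library, 84 had a call in 1, and 181 had a call in 2. The members were called in 42 cases (13.8%) in -Asn replicate 1, 249 (81.9%) in replicate 2 and 155 (51.0%) in replicate 3. Replicate 1 lacked most of them, and of the 181 members called in 2 -Asn libraries, 140 were called in replicates 2 and 3. Without -Asn replicate 1, 164 regions met the rule. All of them were members, which the rule fixes, since leaving out a -Asn library can only remove regions. The number of all regions called also differed between libraries, from 14741 to 15230 in +Asn, from 15554 in replicate 1 to 17448 in replicate 2 of -Asn, and from 15891 to 17206 in -Asn+Fe. The table holds positions without reads, so the depth of the ChIP libraries is not known, and its part in these calls was not tested.

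Around the rule, 617 regions (3.20% of all) were called in all 3 -Asn+Fe and 0 +Asn libraries, and 49 (0.254%) in all 3 +Asn and 0 -Asn+Fe libraries. The other 313 of the 617 were also called in all 3 -Asn libraries, and 552 regions (2.86%) were called in all 3 -Asn and 0 +Asn libraries, here named the regions gained without asparagine. Between the starved media the counts were small and alike, 47 regions (0.244%) called in all 3 -Asn+Fe and 0 -Asn libraries, and 52 called in all 3 -Asn and 0 -Asn+Fe libraries. The reverse of the rule (all 3 -Asn, 0 +Asn, under 3 -Asn+Fe) held 239 regions, so regions called in full only without iron numbered 239 against the 304 members. The rule also turns on single -Asn+Fe libraries: without replicate 1, 2 or 3 of that medium, 354, 577 and 461 regions met it. Leaving out a library of that medium can only add regions.

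**Figure D1:**
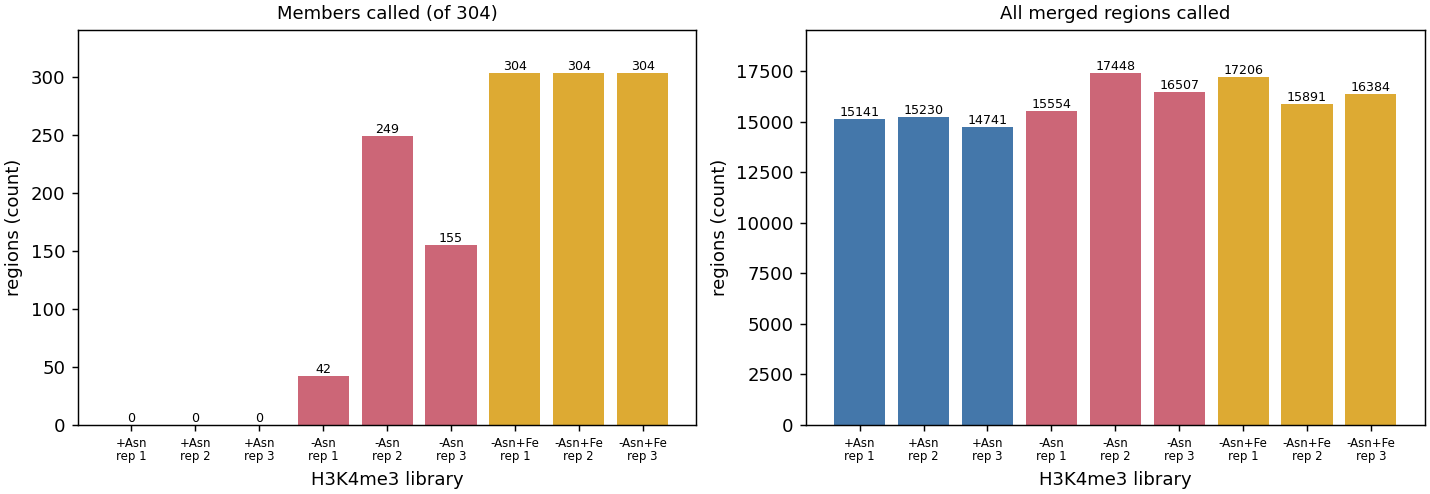
Number of member regions (left) and of all merged regions (right) with a called peak in each H3K4me3 library, 3 libraries per medium. The +Asn and -Asn+Fe bars on the left are fixed by the rule, and the -Asn bars run from 42 in replicate 1 to 249 in replicate 2.

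Members were short. Their spans ran from 248 to 1631 bp with a median of 552.5 bp, and the called length had a median of 400.5, 319 and 338.5 bp in the 3 -Asn+Fe libraries, where all called regions had medians of 1550, 1552 and 1542 bp. In -Asn, the members that were called had median lengths of 294, 382 and 303 bp. Members called at 500 bp or more in each -Asn+Fe library numbered 16. The regions just outside the rule were of like length. Those called in only 2 -Asn+Fe libraries (480) had a median called length of 304 bp and those called in 1 +Asn library (103) of 403 bp, beside 349 bp in the members.

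Few members lay at promoters. A region was counted at a promoter when a gene of the count table had its outermost 5′ end in it or at most 1 kb from it, and otherwise in an exon, an intron or between genes. Of the 304, 46 lay at a promoter (15.1%, exact 95% binomial interval 11.3% to 19.7%), 56 in an exon (18.4%), 117 in an intron (38.5%) and 85 between genes (28.0%). Of the 13883 regions called in all 9 libraries, 75.1% lay at a promoter, and of the 552 regions gained without asparagine 22.5% (19.0% to 26.2%), an interval that overlaps that of the members. A gene's 5′ end lay inside 16 of the members.

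The distance to the 5′ end of the nearest gene tested for RNA had a median of 32724.5 bp, with 86 members within 10 kb and 124 over 50 kb away. From the nearest region called in all 9 libraries the members lay a median of 35166 bp away and 13 were within 1000 bp of one. Only 8 members had another member within 50 kb. Chromosome 18 held 13 members (4.28%) and 1.59% of all regions, and chromosome 8 held 16 (5.26%) and 3.58%. Chromosome 20 held 4 (1.32%) and 2.72%.

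**Figure D2:**
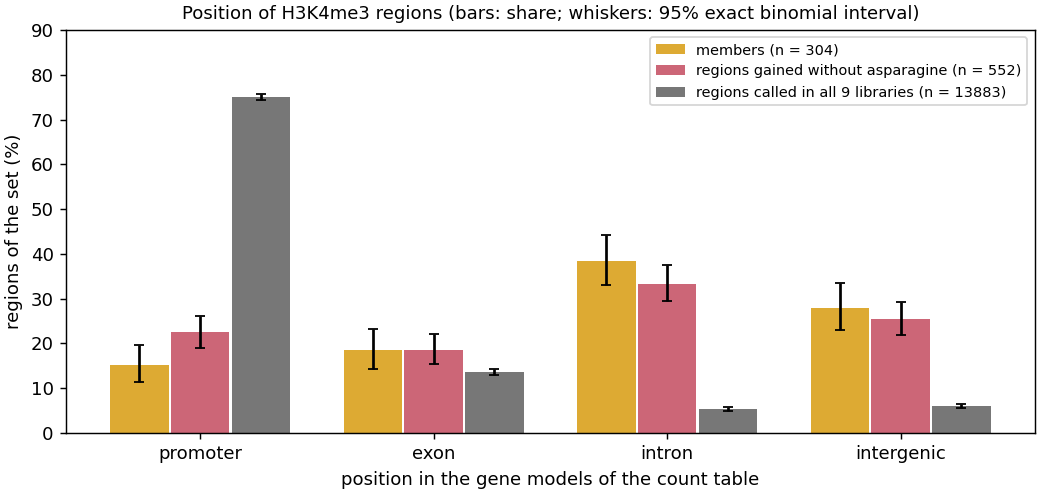
Share of regions (%) at a promoter, in an exon, in an intron or between genes, for the members, the regions gained without asparagine and the regions called in all 9 libraries, with 95% exact binomial intervals as whiskers. Members lay at promoters in 15.1% and constant regions in 75.1%.

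The 5 members with the greatest mean called length in -Asn+Fe illustrate these places. The longest, chr3:48563335-48564576, covers the 5′ end of UCN2, which encodes the peptide hormone urocortin 2, and the end of the neighbouring COL7A1, the gene of type VII collagen. Its called length was 1216, 630 and 1177 bp in the -Asn+Fe libraries and 0, 469 and 642 bp in the -Asn libraries. The region at chrX:1598036-1599486 lies in an exon of AKAP17A, a gene of the pseudoautosomal region whose RNA was listed at 0 counts in all 9 libraries. It was called over 1324, 813 and 791 bp with iron and over 0, 1319 and 833 bp without. How reads that map to both X and Y were counted is not given, so the 0 counts of AKAP17A need not mean absent RNA. The region at chr11:2898504-2899733, at the 5′ end of the transporter gene SLC22A18 and inside its antisense partner SLC22A18AS, was called over 819, 794 and 1134 bp with iron and over 485, 634 and 0 bp without. The remaining pair lay at chr20:63858089-63859366, between genes, and at chr14:69442297-69443405, in an intron of the zinc transporter gene SLC39A9. In -Asn replicate 2, all 5 were called, so the longest members were not those without any call in -Asn.

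Of the 39 members with no -Asn call, 10 examples show the range of places. At promoters they were found at CTSG (chr14:24576011-24576305), PCDHB13 (chr5:141213928-141214175), OASL (chr12:121038799-121039407), IFITM3 (chr11:326575-327181) and APC2 (chr19:1444966-1445302). In gene bodies they lay in an exon of LYL1 (chr19:13099208-13099834) and in introns of UTRN (chr6:144351492-144352238), SKI (chr1:2301418-2302002), ELF1 (chr13:40999050-40999422) and CTTN (chr11:70424551-70424919). These were picked after their values were seen. The RefSeq windows of IFITM3 and APC2 lay 5465 and 4569 bp from these members, so at both genes the promoter depends on the annotation. The called length at CTSG was 243, 252 and 285 bp and at PCDHB13 223, 226 and 238 bp, close to the shortest lengths any library called, 216 to 230 bp in members.

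**Figure D3:**
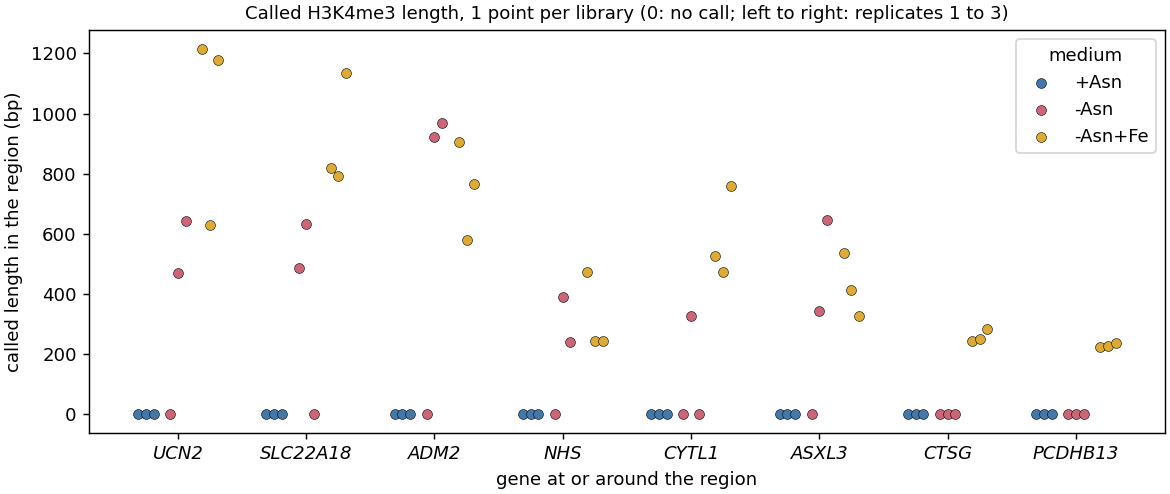
Called H3K4me3 length (bp) in 8 member regions, 1 point per library and medium, with 0 for no call. The rule fixes the +Asn points at 0 and the -Asn+Fe points above 0, and in the regions called in -Asn at least 1 point of that medium is 0.

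RNA depth ran from 29362707 to 42478518 counts a library, and the RNA values that follow are counts scaled to library size and edgeR's TMM factors (CPM). Replicates within a medium differed by more than counting noise (chi-square per degree of freedom 3.91 to 45.0), and -Asn replicate 1 stood apart from the other two of its medium (40.7 and 45.0 against 6.17). The H3K4me3 library with the same number also had the fewest calls of its medium, and the labels do not say whether both came from the same cells. Whether the libraries of a medium are separate cultures is not stated in the labels, and the p-values therefore reflect only how much these libraries vary. Markers of the line were present, with all 10 B-lineage markers at 1 CPM or more, and their summed level was 3300 to 3404 CPM in +Asn, 2751 to 2826 in -Asn and 2423 to 2523 in -Asn+Fe. T cell and erythroid markers summed to at most 0.147 and 0.255 CPM in any library. The myeloid list summed to 10.4 to 10.9 CPM in +Asn, 17.0 to 17.8 in -Asn and 14.0 to 14.9 in -Asn+Fe, nearly all of it CSF1R, with MPO under 1 CPM and ELANE near 0. Whether fewer cells of a type or less RNA per cell lies behind a lower level cannot be told apart in bulk samples.

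Genes with a member at their 5′ end were more often higher than lower in RNA where starved cells were compared with complete medium. There were 54 such genes, 32 of them protein-coding and 17 long noncoding, of which 35 passed the filter on low counts and 19 were too low to be tested. In -Asn+Fe against +Asn, 21 of the 35 were higher (60%) and 3 lower (8.57%), where 32.9% and 31.9% of all 17939 tested genes were higher and lower (edgeR's quasi-likelihood test, adjusted p under 0.05). In -Asn against +Asn, without iron, 17 were higher (48.6%) and 2 lower (5.71%), with 31.0% and 30.2% over all genes. In -Asn+Fe against -Asn, 7 were higher (20.0%) and 3 lower (8.57%), with 14.0% and 16.8% over all genes. The median log2 fold changes of the 35 were 0.90, 0.89 and 0.24 in that order, beside 0.05, 0.04 and -0.01 over all genes. The 3 comparisons share libraries, and some of the 35 passed the filter only through the media in which they were high, so these counts are a description of the genes measured.

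With library totals in place of TMM, the median over all genes in -Asn+Fe against +Asn moved from 0.05 to 0.31 and the calls over all genes from 5893 higher and 5716 lower to 8066 and 3984. Without the H3K4me3 library of -Asn replicate 1, 18 genes with a member at the 5′ end were tested, of which 11 were higher and 1 lower in -Asn+Fe against +Asn, and 2 and 1 in -Asn+Fe against -Asn. Without that of -Asn+Fe replicate 2, 61 were tested, with 38 and 6 in the first and 16 and 8 in the second. Genes at regions gained without asparagine, of which 74 of 144 were tested, were higher in 50 and lower in 8 cases in -Asn+Fe against +Asn, and higher in 14 and lower in 13 in -Asn+Fe against -Asn. The difference between those genes and the genes at members was not tested. Without the RNA library of -Asn replicate 1, 9 genes with a member at the 5′ end were higher and 3 lower in -Asn+Fe against -Asn. Of the 21 genes higher in -Asn+Fe against +Asn, 15 were also higher in -Asn against +Asn and 6 were not called there. Both comparisons use the +Asn libraries, and this overlap was not counted over all genes, so it is no trait of genes at members. Of the 7 tested genes at members with no call in any -Asn library, 4 were higher in -Asn+Fe and 2 in -Asn, each against +Asn. In -Asn+Fe against -Asn, 1 of the 7 was higher (14.3%, beside 14.0% of all genes) and 0 lower, with a median log2 fold change of -0.13.

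**Figure D4:**
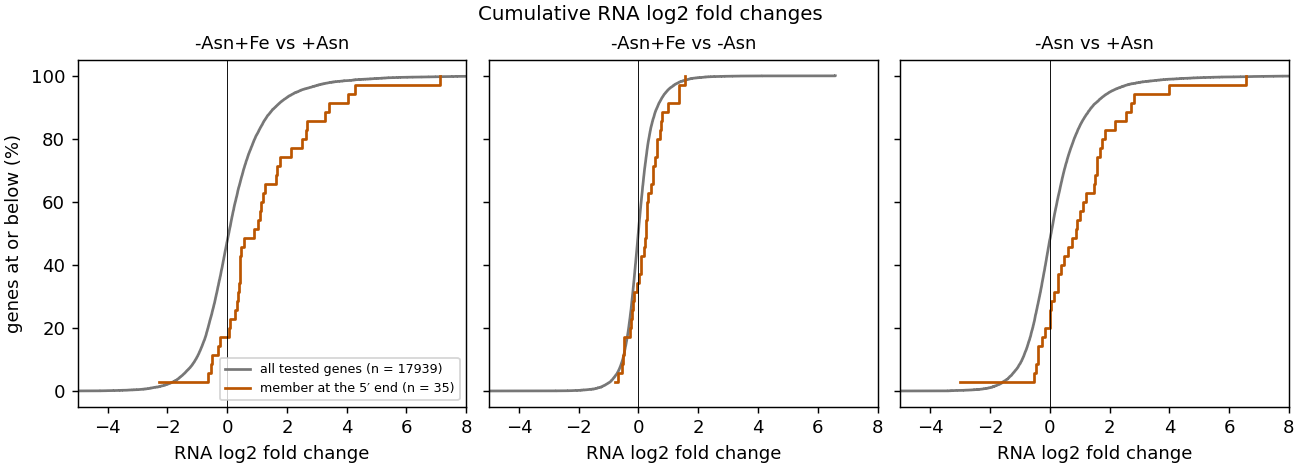
Cumulative share of genes (%) by RNA log2 fold change in each comparison, for the 35 tested genes with a member at the 5′ end and all 17939 tested genes. The curve of the 35 lies to the right of all genes in both comparisons with +Asn (medians 0.90 and 0.89) and closer to it in -Asn+Fe against -Asn (median 0.24).

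Genes of secreted peptides were among those at members. ADM2 (ENSG00000128165.9, chr22:50481543-50486440, plus strand), which encodes the peptide hormone adrenomedullin 2 and belongs to the list of genes of ATF4 and the amino acid response, has its 5′ end in chr22:50481438-50482458. Its RNA was at 0, 0.173 and 0 CPM (+Asn), 5.84, 5.50 and 5.51 CPM (-Asn) and 7.99, 7.39 and 9.05 CPM (-Asn+Fe), so that it went from 6 counts in all to 682 and 910. Every starved library lay far above the +Asn libraries, and the -Asn+Fe values all lay above the -Asn values. ADM2 rose in -Asn+Fe against +Asn (log2 fold change 7.11 with SE 0.367, adjusted p = 3.81e-11, edgeR) and in -Asn against +Asn (log2 fold change 6.57), and rose again in -Asn+Fe against -Asn (log2 fold change 0.54 with SE 0.184, adjusted p = 0.0354, edgeR). All 6 counts of +Asn lay in replicate 2, so the size of both rises against +Asn rests on that library. Over all alternatives they ran from 6.54 to 11.29 and from 5.98 to 10.74, the highest being fitted values without that library, against 0 counts, which depend on the prior count. The call between the starved media was lost with the replicate number as a block (adjusted p = 0.0572, edgeR) and when replicate 2 or 3 of -Asn or replicate 1 or 3 of -Asn+Fe was left out, and over all alternatives tried its log2 value ran from 0.46 to 0.62 with edgeR adjusted p up to 0.150. The region was called over 0, 921 and 968 bp in -Asn and 907, 581 and 765 bp in -Asn+Fe.

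UCN2 (ENSG00000145040.4, chr3:48561718-48563781, minus strand) was higher with iron than in both other media, and its RNA was at 0.481, 0.345 and 0.560 CPM (+Asn), 0.747, 0.491 and 0.461 CPM (-Asn) and 1.61, 1.25 and 1.45 CPM (-Asn+Fe). All -Asn+Fe values lay above all others, and the -Asn and +Asn values overlapped. The difference was log2 fold change 1.64 with SE 0.290, adjusted p = 0.000106 (edgeR) against +Asn and log2 fold change 1.36 with SE 0.278, adjusted p = 0.00153 (edgeR) against -Asn. COL7A1, whose gene ends beside UCN2 on the same strand, was at 3.85, 3.77 and 3.67 CPM (+Asn), 9.01, 8.59 and 6.86 CPM (-Asn) and 14.9, 15.3 and 15.4 CPM (-Asn+Fe) and rose in each step (log2 fold change 1.11 in -Asn against +Asn and 0.90 in -Asn+Fe against -Asn, adjusted p = 1.32e-05, edgeR). Whether reads that run past the end of COL7A1 add to UCN2 was not tested. CYTL1 (ENSG00000170891.11, chr4:5014586-5019458, minus strand), a cytokine-like secreted protein, was at 1.44, 1.52 and 1.04 CPM (+Asn), 9.31, 7.04 and 7.37 CPM (-Asn) and 8.74, 7.49 and 8.74 CPM (-Asn+Fe). It rose in -Asn+Fe against +Asn (log2 fold change 2.64 with SE 0.170, adjusted p = 6.23e-10, edgeR), while its starved groups overlapped (log2 fold change 0.08, adjusted p = 0.711, edgeR).

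Among proteases, CTSG (ENSG00000100448.4, chr14:24573518-24576250, minus strand), the cathepsin G of neutrophil granules, had a member with no call in -Asn. Its RNA was at 0.802, 0.806 and 0.868 CPM (+Asn), 16.6, 12.0 and 11.1 CPM (-Asn) and 16.7, 16.4 and 15.2 CPM (-Asn+Fe). Every starved library lay above every +Asn library, while the starved media overlapped with each other. CTSG rose in -Asn+Fe (log2 fold change 4.28 with SE 0.177, adjusted p = 2.18e-12, edgeR) and in -Asn (log2 fold change 4.0), each against +Asn, and did not pass the test between them (log2 fold change 0.28, adjusted p = 0.102, edgeR). CTSG is itself a gene of myeloid cells, whose marker sum moved as given above, and the part of such cells in its level was not tested. CASP1 (ENSG00000137752.24, chr11:105025443-105035250, minus strand), the protease of inflammasomes, was at 7.06, 6.42 and 6.61 CPM (+Asn), 6.56, 5.60 and 5.80 CPM (-Asn) and 9.84, 8.29 and 9.59 CPM (-Asn+Fe). It stood higher in every -Asn+Fe library than in all others, by log2 fold change 0.63 with SE 0.115, adjusted p = 0.0006 (edgeR) against -Asn, and was not called in -Asn against +Asn (log2 fold change -0.16). Its region, chr11:105034786-105035179, was called over 0, 390 and 245 bp in -Asn and 306, 342 and 287 bp in -Asn+Fe.

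Receptors and adhesion genes moved in different ways. PCDHB13 (ENSG00000187372.11, chr5:141213919-141218979, plus strand), a protocadherin of cell contacts, had a member with no -Asn call and was at 2.33, 2.56 and 2.30 CPM (+Asn), 1.07, 2.90 and 3.39 CPM (-Asn) and 5.13, 4.85 and 4.68 CPM (-Asn+Fe). All -Asn+Fe values lay above the rest, and -Asn replicate 1 was lower than the other two libraries of its medium. It rose in -Asn+Fe against -Asn (log2 fold change 0.98 with SE 0.265, adjusted p = 0.0115, edgeR) and did not pass in -Asn against +Asn (log2 fold change 0.05), and without -Asn replicate 1 the first value was 0.65. Protocadherin genes of the beta cluster are similar in sequence, so reads may have been split between copies. P2RY11, a receptor for extracellular ATP, was at 18.0, 15.6 and 16.4 CPM (+Asn), 19.1, 17.5 and 13.7 CPM (-Asn) and 19.2, 21.7 and 21.4 CPM (-Asn+Fe), and its small rise against -Asn (log2 fold change 0.31 with SE 0.112, adjusted p = 0.0451, edgeR) was lost in 6 of 17 alternatives, among them leaving out replicate 3 of +Asn, or 2 or 3 of either starved medium (log2 0.20 to 0.42 over all alternatives). TNFRSF10C, a decoy receptor for the death ligand TRAIL on chromosome 8, had 2, 10 and 15 counts in all in +Asn, -Asn and -Asn+Fe and was too low to be tested.

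ITGB1, the beta 1 integrin subunit, was at 133, 138 and 144 CPM (+Asn), 103, 117 and 127 CPM (-Asn) and 123, 117 and 109.8 CPM (-Asn+Fe) and fell against +Asn in -Asn+Fe (log2 fold change -0.24, adjusted p = 0.013, edgeR) and in -Asn (log2 fold change -0.25), but with library totals the first value turned to 0.0112. The first call was also lost with upper-quartile factors, with the 1 CPM filter and without -Asn+Fe replicate 3. The call in -Asn was lost with library totals and with upper-quartile factors, with log2 values up to -0.05 and adjusted p up to 0.632 (edgeR). CMTM2, a transmembrane protein, was at 4.65, 3.88 and 4.37 CPM (+Asn), 4.13, 3.41 and 2.40 CPM (-Asn) and 2.65, 3.02 and 2.61 CPM (-Asn+Fe) and fell in -Asn+Fe against +Asn (log2 fold change -0.64 with SE 0.182, adjusted p = 0.00536, edgeR), a call that library totals ended. CHRNA1, the muscle acetylcholine receptor alpha subunit, was low throughout with 82, 11 and 17 counts in +Asn, -Asn and -Asn+Fe, and fell in both starved media. It was singled out after its values were seen, being the remaining gene called lower in -Asn+Fe against +Asn. The RefSeq windows of ITGB1 and CHRNA1 lay 46902 and 24025 bp from their members, which were placed by the count table's annotation.

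Other called genes had roles outside these groups. NHS (ENSG00000188158.15, chrX:17375420-17735994, plus strand), an actin regulator, was at 0.348, 0.691 and 0.420 CPM (+Asn), 2.80, 4.15 and 3.22 CPM (-Asn) and 4.05, 5.27 and 4.94 CPM (-Asn+Fe). Its starved values lay above all +Asn values (log2 fold change 3.28 with SE 0.246, adjusted p = 4.16e-09 in -Asn+Fe, edgeR), and those of -Asn and -Asn+Fe overlapped (log2 fold change 0.48, adjusted p = 0.0629, edgeR). VWA5A (ENSG00000110002.15, chr11:124115362-124147721, plus strand) was at 0.588, 0.460 and 0.728 CPM (+Asn), 1.95, 1.82 and 2.21 CPM (-Asn) and 3.07, 4.08 and 2.92 CPM (-Asn+Fe) and rose in both steps, by log2 1.74 in -Asn against +Asn and by log2 fold change 0.75 with SE 0.190, adjusted p = 0.00708 (edgeR) in -Asn+Fe against -Asn. WDR35, a protein of transport in cilia, and HSD17B14, a hydroxysteroid dehydrogenase, rose in -Asn+Fe against +Asn by log2 1.66 and 1.77 and in -Asn against +Asn by 1.59 and 1.48. Neither passed in -Asn+Fe against -Asn (log2 fold change 0.07 and 0.29).

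Long noncoding RNAs gave the largest called rise and the largest called fall of -Asn+Fe against -Asn among the 35 genes. AP001981.2 (ENSG00000287245.1, chr11:109946581-109975996, plus strand), with its 5′ end in chr11:109946513-109946977, was at 0.321, 0.259 and 0.196 CPM (+Asn), 1.28, 0.785 and 0.760 CPM (-Asn) and 2.65, 3.34 and 2.30 CPM (-Asn+Fe). Its 3 groups did not overlap, and it rose in -Asn against +Asn (log2 fold change 1.84) and again in -Asn+Fe against -Asn (log2 fold change 1.56 with SE 0.247, adjusted p = 0.000168, edgeR). AP003086.1 went the other way with iron. At 5.67, 7.39 and 5.68 CPM (+Asn), 17.6, 19.5 and 19.4 CPM (-Asn) and 10.7, 12.0 and 12.4 CPM (-Asn+Fe), it rose without asparagine (log2 fold change 1.59) and was lower in -Asn+Fe than in -Asn (log2 fold change -0.69 with SE 0.110, adjusted p = 0.000186, edgeR), though its region chr11:78429116-78429770 was called in all -Asn+Fe libraries. AC010186.3 fell by 0.29 and GBF1, an exchange factor for ARF proteins at the Golgi, fell by 0.20 on the log2 scale in -Asn+Fe against -Asn, calls that were lost in 4 and 9 of 17 alternatives. They included, for both genes, leaving out replicate 2 of -Asn or replicate 2 or 3 of -Asn+Fe, and for GBF1 also replicate 3 of +Asn, 3 of -Asn or 1 of -Asn+Fe (log2 -0.36 to -0.22 for AC010186.3 and -0.23 to -0.15 for GBF1 over all alternatives).

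Several member promoters hold genes that barely expressed any RNA. Of the 19 genes too low to be tested, MC5R, a melanocortin receptor, had 0 counts in +Asn, 1 in -Asn, and 0, 6 and 1 in the -Asn+Fe libraries. ST6GALNAC2, a sialyltransferase, had 0 in +Asn, 1 in -Asn, and 7, 0 and 0 with iron, so 1 library held all of its -Asn+Fe counts. LIF, the cytokine leukaemia inhibitory factor, was tested and had 5, 27 and 35 counts, which were higher in both starved media than in +Asn (log2 fold change 2.66 and 2.18, adjusted p = 0.00539 and 0.0243, edgeR). OASL, an interferon-stimulated gene with a member uncalled in -Asn, had 12, 39 and 55 counts, was called higher in -Asn+Fe against +Asn (log2 fold change 2.14, adjusted p = 0.0161, edgeR), and its libraries overlapped with those of +Asn. IFITM3, an antiviral membrane protein, and APC2, a relative of the APC tumour suppressor, also have members uncalled in -Asn and passed in none of the 3 comparisons (log2 fold change -0.54 and 0.27 in -Asn+Fe against +Asn). These genes were picked after their values were seen. The members of IFITM3 and APC2 lay 5465 and 4569 bp from the RefSeq windows of the 2 genes.

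**Figure D5:**
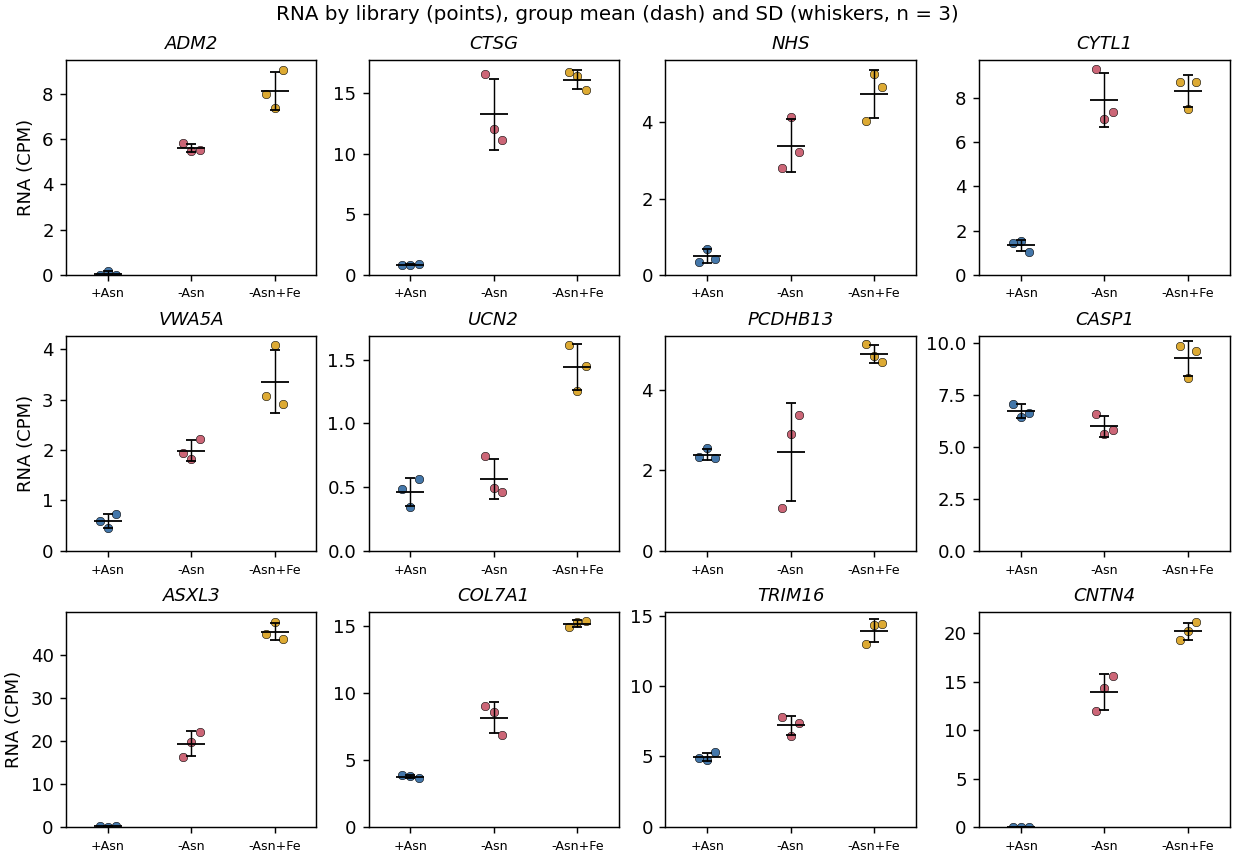
RNA (CPM) in each library for 12 genes at or around members, with the mean and SD of 3 libraries per medium. ADM2, CTSG, NHS, CYTL1, ASXL3 and CNTN4 rose in both starved media, and UCN2, CASP1 and PCDHB13 lay above the other media only in -Asn+Fe.

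Tested protein-coding genes with a member inside were higher about as often as lower against +Asn. In -Asn+Fe against -Asn, more of them were higher than lower. Of the 304 members, 211 overlapped a gene body of any kind, 170 a protein-coding one and 90 an exon. The protein-coding bodies belonged to 194 genes, 158 of them tested, a set added after the data were seen. In -Asn+Fe against +Asn, 60 were higher and 57 lower (38.0% and 36.1%, beside 32.9% and 31.9% of all genes), in -Asn against +Asn 53 and 56 (33.5% and 35.4%, beside 31.0% and 30.2%), and in -Asn+Fe against -Asn 37 and 20 (23.4% and 12.7%, beside 14.0% and 16.8%). The 136 of them with no member at the 5′ end were higher in 31 and lower in 20 cases in the last comparison (22.8% and 14.7%). In -Asn+Fe against +Asn, 44 of the 136 were higher and 55 lower (32.4% and 40.4%).

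The steepest changes among these host genes were in genes nearly silent in +Asn. ASXL3 (ENSG00000141431.12, chr18:33578219-33751195, plus strand), a relative of the Polycomb partner ASXL1, holds a member in an exon at chr18:33605420-33606093, 27201 bp from its 5′ end. Its RNA was at 0.241, 0.0575 and 0.112 CPM (+Asn), 16.2, 19.9 and 22.1 CPM (-Asn) and 44.8, 47.6 and 43.8 CPM (-Asn+Fe). The 3 media did not overlap, and ASXL3 rose without asparagine (log2 fold change 7.09) and further with iron (log2 fold change 1.23 with SE 0.112, adjusted p = 5.11e-07, edgeR). CNTN4, a contactin of neural cell adhesion, holds a member in an intron at chr3:2540435-2541205 and had 1, 1705 and 2246 counts in +Asn, -Asn and -Asn+Fe. Scaled to library size, that is a ratio of 2171 in -Asn+Fe against +Asn with a 95% counting interval of 389 to 85804, and CNTN4 also rose in -Asn+Fe against -Asn (log2 fold change 0.54, adjusted p = 0.00178, edgeR).

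SLC22A18AS, the antisense partner of SLC22A18, was at 0.160, 0.144 and 0.0560 CPM (+Asn), 1.73, 1.08 and 1.01 CPM (-Asn) and 2.70, 2.92 and 3.35 CPM (-Asn+Fe) and rose in each step, while SLC22A18 itself, whose 5′ end the member covers, passed in no comparison (log2 fold change 0.41 in -Asn+Fe against +Asn). Reads of the pair cannot be told apart unless strand was counted, and the strand setting is not given in the sources used here. TRIM16, a ubiquitin ligase-like protein, was at 4.89, 4.72 and 5.29 CPM (+Asn), 7.79, 6.48 and 7.37 CPM (-Asn) and 13.0, 14.4 and 14.4 CPM (-Asn+Fe) and rose in -Asn+Fe against -Asn (log2 fold change 0.95 with SE 0.108, adjusted p = 5.78e-06, edgeR). Its member lies at chr17:15651317-15651817, also the 5′ end of the overlapping AC005324.3. RUNX3, a transcription factor of blood cells, fell without asparagine and was higher again with iron, at 1.44, 1.55 and 1.79 CPM (+Asn), 0.827, 0.933 and 0.852 CPM (-Asn) and 1.86, 1.54 and 2.07 CPM (-Asn+Fe). Its -Asn values lay below both other media (log2 fold change -0.87 in -Asn against +Asn, and 1.07 with adjusted p = 0.00122 in -Asn+Fe against -Asn, edgeR). KIF21B, a kinesin motor, and MYO7B, a myosin, rose in -Asn against +Asn by log2 2.15 and 1.77 and did not pass with iron against -Asn (log2 fold change 0.05 and -0.19).

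SLC39A9, the host of the fifth longest member, was at 125, 121 and 119 CPM (+Asn), 134, 162 and 163 CPM (-Asn) and 179, 167 and 179 CPM (-Asn+Fe) and rose in -Asn+Fe against +Asn (log2 fold change 0.52 with SE 0.0774, adjusted p = 1.58e-05, edgeR). Among host genes that fell, ZNF367, a zinc finger protein, was at 115, 121 and 115 CPM (+Asn), 36.0, 39.1 and 40.8 CPM (-Asn) and 20.1, 20.9 and 17.5 CPM (-Asn+Fe) and was lower at each step, with a log2 fold change of -1.60 in -Asn against +Asn and -0.99 in -Asn+Fe against -Asn (adjusted p = 1.35e-07, edgeR). ABCC4, an exporter of cyclic nucleotides and drugs, and GAREM1, an adaptor of growth factor signalling, fell in -Asn against +Asn (log2 fold change -1.66 and -1.54). GTF3C5, a subunit of the RNA polymerase III factor TFIIIC, and BOP1, a ribosome assembly factor, fell in both steps, by log2 fold changes of -0.47 and -0.35 in -Asn+Fe against -Asn. ANKRD33B fell without asparagine (log2 fold change -1.61) and was higher with iron than without (0.68). BTBD2, TRIOBP, an actin-binding protein, ZNF395 and DAD1, a subunit of the oligosaccharyltransferase, fell in -Asn+Fe against -Asn (log2 fold change -0.62, -0.60, -0.53 and -0.51). In -Asn against +Asn, BTBD2, TRIOBP and DAD1 were higher (0.36, 0.74 and 0.23) and ZNF395 was lower (-0.24). TRIOBP was not called in -Asn+Fe against +Asn (log2 fold change 0.14, adjusted p = 0.0999, edgeR), where BTBD2, ZNF395 and DAD1 were lower (-0.26, -0.77 and -0.29). The BTBD2 and DAD1 calls there were each lost in 3 of 17 alternatives. Regions that gained a call against +Asn thus lay in genes whose RNA fell against +Asn, such as ZNF367 and ABCC4, as well as in genes whose RNA rose.

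Genes of 10 lists of pathways and gene families were searched for members. Of 238 genes in 10 lists, 235 of them in the count table, 2 had a member at the 5′ end, ADM2 of the ATF4 list and TNFRSF10C of the p53 target list. That is 0.851% of the list genes, where 54 of the 60566 genes on the main chromosomes (0.0892%) had one. Among genes tested for RNA, 1 of 185 list genes (0.541%) and 35 of all 17939 (0.195%) had one. KDM2B, a JmjC demethylase from the list of H3K4 demethylases, held a member in an intron 128137 bp from its 5′ end, and its RNA fell without asparagine (log2 fold change -0.86) and was at a log2 fold change of -0.08 with iron against -Asn (adjusted p = 0.328, edgeR). None of the genes listed as NRF2 targets (30), for iron uptake, storage and regulation (25), as NF-kB targets (33), AP-1 and immediate early genes (30), heat shock genes (15), metallothioneins and zinc transport (14) or H3K4 methyltransferase subunits (19) had one at the 5′ end or in the body. For members in the body, no share over all genes is given here to set beside the lists. RNA of the lists went in different directions, and they are given here for -Asn+Fe against -Asn, with 14.0% of all genes higher and 16.8% lower, and then for both comparisons with +Asn.

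In -Asn+Fe against -Asn, 23 of 26 tested NRF2 targets were higher and 0 lower (median log2 fold change 0.93), as were 19 and 0 of 26 p53 targets (0.55), 16 and 0 of 20 NF-kB targets (0.74) and 8 and 0 of 11 heat shock genes (0.60). The ATF4 list had 12 higher and 2 lower of 31 (0.18), the AP-1 list 9 and 7 of 27 (0.17), the iron list 5 and 3 of 17 (0.07) and the H3K4 demethylases 2 and 0 of 7 (0.16). More were lower than higher among H3K4 methyltransferase subunits, 1 higher and 5 lower of 17 (-0.07), and metallothioneins and zinc transport, 1 and 3 of 7 (-0.37).

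In -Asn+Fe against +Asn, 32.9% of all tested genes were higher and 31.9% lower, and in -Asn against +Asn 31.0% and 30.2%. The number of genes tested in each list was the same as in -Asn+Fe against -Asn. Of the ATF4 list, 31 of 31 genes were higher in the first (median 2.55), and 27 were higher and 0 lower in the second (2.23). The same pair of comparisons gave 22 higher and 0 lower, then 18 and 4, for p53 targets (1.30 and 0.74), 23 and 1, then 18 and 3, for the AP-1 list (1.40 and 0.79), and 14 and 2, then 9 and 7, for NF-kB targets (1.29 and 0.75). NRF2 targets had 16 and 5 in the first and 11 and 13 in the second (1.54 and -0.10). Heat shock genes stood lower than in +Asn in both, with 2 higher and 8 lower, then 1 and 9 (-0.93 and -1.38). H3K4 methyltransferase subunits had 2 and 11, then 2 and 10 (-0.49 and -0.46), metallothioneins and zinc transport 1 and 6, then 0 and 4 (-1.26 and -0.94), the iron list 5 and 8, then 6 and 7 (-0.20 and -0.05), and the H3K4 demethylases 3 and 2, then 2 and 3 (0.15 and -0.03).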

How the data were processed

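H3K4me3 ChIP-seq and RNA-seq were compared in 3 media with 3 libraries each, grouped by the labels. The 3 input libraries have no values of their own here. The authors deposited RNA as unnormalised counts for each gene. The submitters' processing notes name hg38, bcl2fastq, Subread 1.6.5 with featureCounts, and STAR 2.7.2a. No source used here gives the strand or multi-mapping setting, so overlapping, antisense and near-identical genes are less certain. For H3K4me3 the authors deposited, for each of 19279 merged regions, where each library had a called peak, without reads or peak heights. The notes name hg38, MACS2 2.2.7.1, Picard 2.18.26 and Bowtie2 2.4.4 for these. How strict the calling was, and whether inputs entered it, is not given in the sources used here. Lines have 13 fields under 12 names, and the last 9 fields were taken as the 9 libraries.

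The members, the gene lists and the rules were chosen with earlier results of these data known. Called length is the number of bases of a region under a library's peaks. The RNA model was fitted with R 4.3.3 and its package edgeR 4.0.16, with filterByExpr, TMM scaling and a robust quasi-likelihood model of the 9 libraries with 3 contrasts. Genes with a Benjamini-Hochberg adjusted p under 0.05 over 17939 genes were called. The biological coefficient of variation was 0.0871, with 6 residual degrees of freedom. Counts of 17939 genes were simulated, with changes put into a part of them. Of the genes given a 4-fold change, 96.0%, 87.8% and 95.9% were recovered, and of those given a 1.25-fold change 20.4%, 16.3% and 24.5%. The order is -Asn+Fe against +Asn, -Asn+Fe against -Asn and -Asn against +Asn. False calls made up 7.32%, 4.92% and 5.15% of the calls in that order. Named genes were, per contrast and direction, up to 8 called genes with a member at the 5′ end whose mean reached 1 CPM and whose groups did not overlap, the genes at the 5 longest members, and list genes with a member at the 5′ end. Up to 5 host genes per contrast and direction were added by the same rule after the data were seen. Replicate numbers did not pair the RNA libraries. Alternatives were DESeq2 1.42.0, RLE, upper-quartile and total-count scaling, other low-count filters, only the 6 libraries compared, a replicate block, minimum called lengths of 300 and 500 bp, other promoter windows and leaving out each library. The remaining steps used Python 3.11.15 with pandas 2.3.3, numpy 2.4.6, scipy 1.17.1 and matplotlib 3.10.9. Promoter sequences are from RefSeq GRCh38.p14, and 19 of 54 genes matched, of which the 14 with a window within 1000 bp of the member entered the motif counts.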

Additional observations from a re-analysis of the deposited data

How the results depend on the processing

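The choice of members depends most on single H3K4me3 libraries. Leaving out 1 library gave 164 to 577 regions, 22 to 97 of them at a promoter. It gave 11 to 38 promoter genes higher and 1 to 6 lower in -Asn+Fe against +Asn, 2 to 16 higher and 1 to 8 lower in -Asn+Fe against -Asn, and 8 to 33 higher and 0 to 6 lower in -Asn against +Asn. Counting only peaks of 500 bp or more gave 169 regions. With the 5′ end inside the region, 16 regions lay at a promoter, and in the same order of comparisons 11, 4 and 8 promoter genes were higher, while 0 were lower in -Asn+Fe against -Asn and 1 in -Asn against +Asn. With at least 500 bp called in each -Asn+Fe library, 3, 2 and 2 were higher and 0 lower in each, because few genes are left. A 2 kb window gave 5 lower in -Asn+Fe against -Asn. The 1 CPM filter and library totals each left 1 lower in both comparisons with +Asn, and upper-quartile factors left 1 lower in -Asn against +Asn and 1 in -Asn+Fe against -Asn. Of 198 settings of these counts, 156 stayed within 1.5 times the main count. Of 1513 settings of single named genes, 1465 kept direction and call, 47 lost the call, and only ITGB1 in -Asn+Fe against +Asn turned, to a log2 value of 0.0112 with library totals. The cause of these changes was not tested except where fewer genes were left. The replicate numbers did not pair the libraries. Between same-numbered RNA libraries of different media, the genes' deviations from their group means in log CPM had correlations of -0.08 to 0.07. With a replicate block, 21, 7 and 18 promoter genes were higher and 3, 3 and 2 lower, and among named genes ADM2 lost its call in -Asn+Fe against -Asn (edgeR adjusted p = 0.0572). The depth of the ChIP libraries is not known, and RNA of 19 promoter genes was too low to be tested.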
